A study of Drosophila melanogaster with 4 samples.

Results

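The regions described here are the transcript starts of Drosophila melanogaster noncoding RNA genes that lie away from protein-coding starts. The measurement is where a tagged Distal-less protein was found by ChIP-seq. Starts of genes of the biotype ncRNA in Ensembl BDGP6.54 were taken on the nuclear chromosome arms and kept where they were over 1000 bp from every protein-coding start. Each was given a window of 500 bp on either side, and a window held a peak when the peak's summit, its highest point, lay inside it. This gave 2460 starts of 2359 genes, out of 3452 noncoding starts and 23082 starts of noncoding and protein-coding genes together. The other 992 noncoding starts lay within 1000 bp of a coding start and served for comparison, as did the 19630 coding starts. Of the 2460 starts, 1477 lay between coding genes and the rest inside an intron or exon of one.

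The 4 samples form 1 group, biological replicates of embryos collected at 0 to 24 h from the transgenic fly strain Dll-GFP, which carries Distal-less (Dll) fused to eGFP. The fusion was precipitated with an antibody against GFP from sonicated chromatin of 200 to 800 bp. The whole embryo was used, so bound DNA from the cells that make Dll cannot be told apart from that of other cells. The labels point to a control experiment, which was not analysed here. Each replicate has a ranked list of candidate peaks, with 39011 to 44390 rows on the nuclear arms, and a thresholded list of 2523 to 3610 rows. A further list, which the submitters named conservative, covers the whole series and holds 5203 rows.

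Long noncoding RNAs are transcripts without a long reading frame that are made by RNA polymerase II, often spliced, and in flies often restricted to a tissue or stage. Some, such as roX1 and roX2 in dosage compensation or the heat-shock RNA Hsromega, have known roles, while most are known only by an annotation number. Dll is a homeodomain protein that specifies legs, antennae and other ventral appendages, and homeodomains as a class prefer AT-rich words such as TAATTA.

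The name long noncoding RNA promoters held for only part of the set, because the biotype also takes in small RNAs. Symbols beginning lncRNA or asRNA (antisense RNA) covered 1608 and 222 starts. Another 371 starts were of mature miRNA entries and 197 of miRNA hairpins, whose annotated ends are sites of processing within a longer transcript. The rest were 27 Su(Ste) repeats, 12 sncRNA entries, 2 snoRNA hosts and 21 others. In all, 1874 starts (76.2%) belonged to genes whose longest spliced transcript reached 200 nt, with a median of 687 nt, and values for this subset are given beside those of the whole set where they matter. Because starts cluster, the 2460 windows merged into 1819 separate stretches, so neighbouring starts often share one peak.

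The DNA under the most repeatedly bound members is shown first. These 5 sequences come from the 12 genes with a summit in all 4 thresholded lists, in order of mean rank after leaving out the 5 genes on one chromosome arm, from which no sequence is shown. The genes left out include the first by rank, lncRNA:CR43650, so the 5 are not the 5 strongest. Each runs over 151 bases centred on the summit of the conservative list, 5′ to 3′ on the strand of the gene, from the RefSeq copy of Drosophila release 6 (the dm6 build). Capitals mark 1 of 9 words searched on both strands. TATCGATA is the word of the DNA replication-related element factor DREF, CGATAT that of the insulator protein BEAF-32, GAGAGAG that of the GAGA factor, GGTCACAC that of M1BP, TATAAA the TATA box, TAATTA a homeodomain core, CAGGTAG the word of Zelda, GGTTCGA the B box of tRNA genes and TCAGTT a form of the initiator. Hits of TATCGATA and CGATAT can overlap. The positions are X:23007557-23007707 on the + strand for asRNA:CR45009, X:20760681-20760831 on the - strand for lncRNA:CR43838, 3L:174636-174786 on the + strand for asRNA:CR45806, 3L:13032604-13032754 on the - strand for lncRNA:CR45157 and 3R:25495907-25496057 on the - strand for lncRNA:CR44948.
asRNA:CR45009: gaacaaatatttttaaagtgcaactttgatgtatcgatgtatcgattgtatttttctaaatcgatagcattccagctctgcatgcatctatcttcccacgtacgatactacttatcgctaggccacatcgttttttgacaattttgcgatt
lncRNA:CR43838: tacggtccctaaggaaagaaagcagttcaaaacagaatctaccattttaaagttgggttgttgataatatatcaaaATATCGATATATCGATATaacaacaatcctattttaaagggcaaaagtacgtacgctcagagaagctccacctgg
asRNA:CR45806: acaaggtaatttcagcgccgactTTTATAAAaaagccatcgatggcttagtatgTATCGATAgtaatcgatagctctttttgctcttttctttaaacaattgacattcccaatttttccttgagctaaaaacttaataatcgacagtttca
lncRNA:CR45157: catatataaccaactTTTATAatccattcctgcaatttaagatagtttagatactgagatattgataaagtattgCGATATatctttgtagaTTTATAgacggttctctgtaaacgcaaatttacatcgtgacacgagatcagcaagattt
lncRNA:CR44948: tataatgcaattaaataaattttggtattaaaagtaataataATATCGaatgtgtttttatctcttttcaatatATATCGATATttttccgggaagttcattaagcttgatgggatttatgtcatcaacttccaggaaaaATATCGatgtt

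At lncRNA:CR43838, 6 overlapping hits of TATCGATA and CGATAT form one run that begins 1 base after the summit. At lncRNA:CR44948 a TATCGATA begins at the summit base itself, with 4 hits of CGATAT around it. At asRNA:CR45806 the TATCGATA begins 21 bases before the summit, beside a pair of overlapping TATAAA hits. At lncRNA:CR45157 a CGATAT begins at the summit base. None of the 9 words is in the window of asRNA:CR45009, and TAATTA is in none of these 5 windows. Among the 5 genes on the arm left out, TAATTA and TCAGTT were found within 50 bp of the summit of lncRNA:CR43650. TATCGATA was found within 50 bp of that of lncRNA:CR45471. No word was found within 50 bp of the summit of asRNA:CR45131 or of that shared by asRNA:CR46453 and lncRNA:CR46455. The same held for the summit shared by mir-2282 and its mature entry, which rank after the 5 shown. These matches are a description of letters and were not tested as binding sites.

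Few of these noncoding starts carried a thresholded peak. In the conservative list 59 of the 2460 windows (2.40%) held a summit, against 29.3% of coding starts, 15.5% of noncoding starts near coding starts and 25.8% of all starts. The 59 starts belonged to 53 genes, fell into 46 merged stretches and held 57 distinct summits. Of the 1874 starts of at least 200 nt, 54 (2.88%) did so, and of the 586 shorter ones 5 (0.853%).

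The replicates' own thresholded lists gave smaller shares. In replicate 1, 29 starts (1.18%) held a summit, beside 20.3% of all starts. The counts were 37 starts (1.50%) in replicate 2, beside 21.0%, and 18 starts (0.732%) in replicate 3, beside 15.9%. Replicate 4 had 19 starts (0.772%), beside 17.4%. Replicates 1 and 2, whose lists are the longer ones, gave the higher shares, as they did among all starts.

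The mean was 1.05% ± 0.366 (SD, n = 4), or 1.27% ± 0.480 for genes of at least 200 nt. Coding starts reached 21.2% ± 2.72, and the within-replicate difference was 20.2 percentage points ± 2.37, with the coding share higher in 4 of 4 replicates. The exact two-sided permutation p over sign flips was 0.13, the smallest that 4 replicates allow, so no such test here can reach 0.05. Noncoding starts near coding starts held a summit in 10.5% ± 1.77 of cases, above the members in 4 of 4 replicates with the same exact p of 0.13. The groups did not overlap in any of these comparisons. Of 6 such tests over replicates, all gave p = 0.13 in the exact permutation test, which the Benjamini-Hochberg adjustment left at 0.13.

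**Figure D1:**
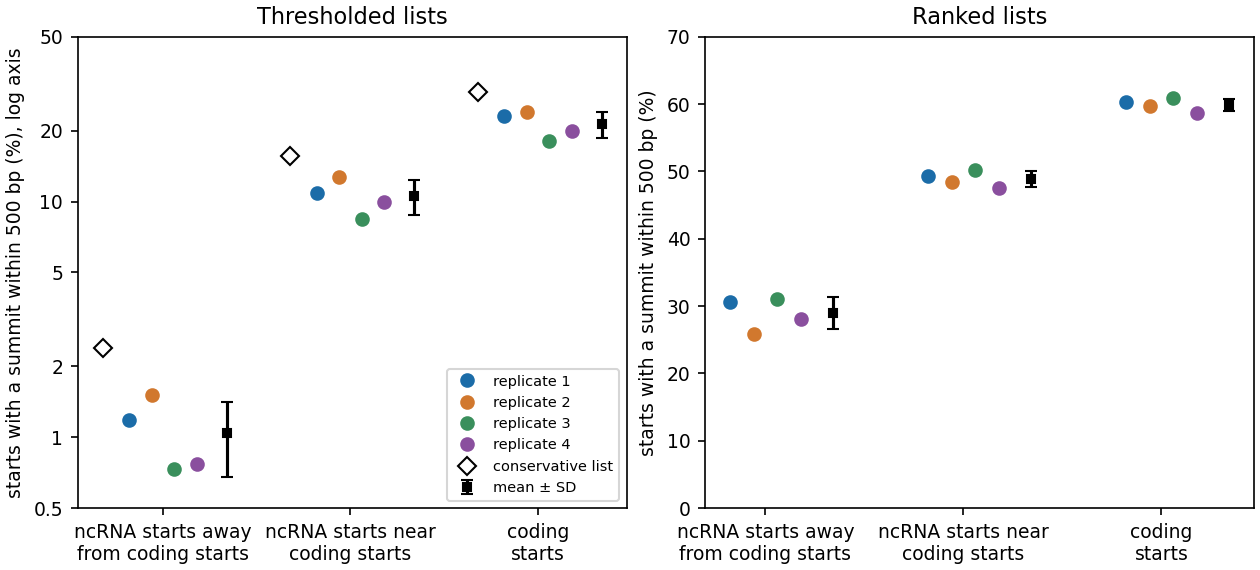
Percent of starts with a summit within 500 bp, for the noncoding starts away from coding starts, those within 1000 bp of one and the coding starts. Coloured points are replicates, squares are their mean ± SD and diamonds the conservative list. In the thresholded lists (log axis) the noncoding starts lie between 0.732% and 1.50%, and all 4 coding values between 18.1% and 23.9%.

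The candidate peaks of the ranked lists, which reach down to low scores of reproducibility, were more frequent. Ranked summits lay in 30.7% of the windows in replicate 1, beside 56.7% of all starts, and in 25.9% in replicate 2, beside 55.6%. They lay in 31.1% in replicate 3, beside 57.2%, and in 28.1% in replicate 4, beside 54.9%. The mean of 28.9% ± 2.39 stood against 59.9% ± 0.961 at coding starts. Replicate 2 had the lowest ranked share and the highest thresholded share. A ranked summit in all 4 replicates was found at 207 starts (8.41%), against 43.7% of coding starts, and 146 of the 207 had no summit in any thresholded list.

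Although low, the number of peaks was above that of other DNA away from coding starts. The density of summits in the member windows was compared with that in the remaining DNA over 500 bp from any coding start. Thresholded summits in the windows (1.94 Mb) numbered 15.4 per Mb in replicate 1, 18.0 in replicate 2, 8.74 in replicate 3 and 9.26 in replicate 4. In the other 120 Mb the values in the same order were 3.14, 3.21, 1.88 and 2.12 per Mb. The density near noncoding starts was higher in every replicate, by 4.88-fold ± 0.531 (SD, n = 4), a mean log2 ratio of 2.28 with an exact permutation p of 0.13. With the conservative list it was 29.3 against 6.15 per Mb.

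The ratio among candidate peaks of the ranked lists was 1.55-fold ± 0.0851, with the windows higher in 4 of 4 replicates. The thresholded excess was present at each distance from coding starts, a comparison added after the data were seen. Over 500 and up to 1000 bp the windows held 17.9 ± 7.16 summits per Mb against 7.99 ± 1.56, the smallest ratio of the 5 bins, on 1 to 2 summits a replicate. From 1001 to 2000 bp they held 25.4 ± 6.43 summits per Mb, against 4.20 ± 1.20 in other DNA at that distance. From 2001 to 5000 bp the values were 14.8 ± 6.33 and 2.39 ± 0.617, and from 5001 to 10000 bp 8.63 ± 5.13 and 1.95 ± 0.714, the last on 1 to 6 summits a replicate. Over 10000 bp they were 4.50 ± 3.79 and 0.924 ± 0.300, resting on only 1 to 5 summits a replicate. Compared bin by bin, the windows held 5.19-fold ± 0.522 as many summits as the density of other DNA would give.

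**Figure D2:**
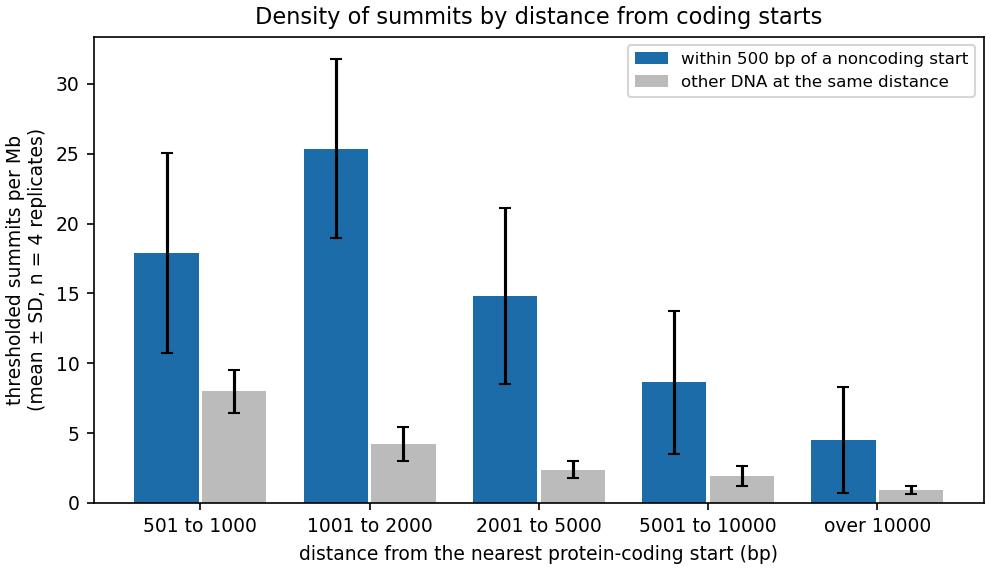
Thresholded summits per Mb within 500 bp of the noncoding starts (blue) and in other DNA at the same distance from the nearest protein-coding start (grey), as mean ± SD over 4 replicates. The blue bar is higher in each of the 5 distance bins, and both fall with distance from 1001 bp on, to 4.50 and 0.924 per Mb over 10000 bp.

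Transcript ends of noncoding genes served as a further comparison, also added after the data were seen. At 593 ends that lie away from every coding start and every noncoding start, thresholded summits were found in 0.717% ± 0.288 (SD, n = 4). These ends came from 527 genes, of which 412 also have member starts. The 455 member starts of those 412 genes gave 1.92% ± 0.631, so the genes compared are not all the same. The counts behind these shares are small, with 2 to 6 ends and 7 to 13 starts per replicate. Ranked summits lay at 23.1% ± 1.05 of the ends and 32.0% ± 2.14 of the starts.

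The peaks at noncoding starts were mostly weak for their list. Ranked by the authors' signal from the top of each thresholded list, the median summit at a member start was at 66.1%, 68.3%, 66.3% and 59.3% in replicates 1 to 4. At coding starts the medians were 37.0%, 37.8%, 40.1% and 39.0%. The ranges did not overlap, and the mean difference was 26.5 percentage points ± 4.56 (SD, n = 4; exact permutation p = 0.13).

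Summits within 100 bp of the start were a smaller share at noncoding than at coding starts. Of the thresholded members, 34.5%, 21.6%, 16.7% and 15.8% had their summit that near in replicates 1 to 4, where 3 to 10 starts make up the value. The mean of 22.1% ± 8.62 was close to the 20.1% that an even spread over the window gives. At coding starts with no opposite coding start within 1000 bp the share was 61.4% ± 0.693. The median distance from start to summit was 216 bp ± 39.3 against 75 bp ± 0.816. At these coding starts 75.3% ± 1.32 of summits lay upstream, and at noncoding starts 54.4% ± 6.70. For members of at least 200 nt, 24.1% ± 8.93 lay within 100 bp and 59.4% ± 6.57 upstream, with a median distance of 187 bp ± 10.9. The conservative list gave 35.6% within 100 bp at member starts (21 of 59) and 58.1% at the same coding starts. The ranked lists gave 27.5% ± 3.01 at member starts and 44.8% ± 3.29 at the same coding starts. Members were not filtered for opposite starts. The member values of the ranked lists, 25.0% to 31.8%, were above the even spread in each replicate. None of these differences in position was tested.

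**Figure D3:**
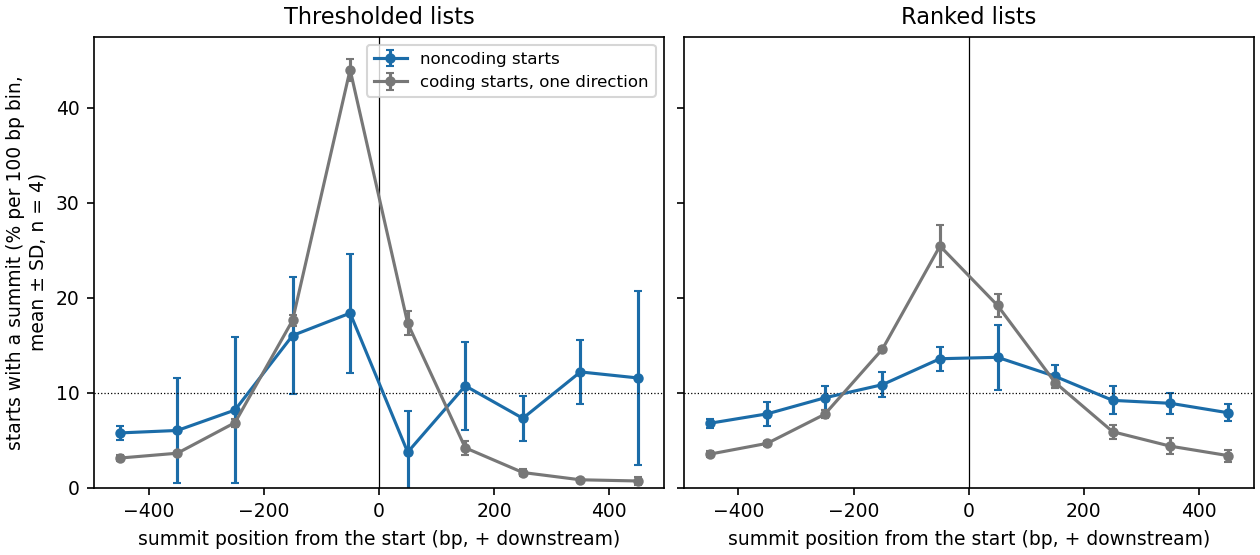
Position of the nearest summit relative to the start, in bins of 100 bp with negative values upstream, as mean ± SD over 4 replicates; the dotted line is an even spread. Coding starts with no opposite coding start within 1000 bp (grey) peak just upstream in both panels. Noncoding starts (blue) have a low maximum and wide error bars in the thresholded lists, where 18 to 37 starts per replicate hold a summit.

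Thresholded or conservative summits were found at 68 starts of 62 genes. By the number of thresholded lists with a summit at the best start, 12 genes had 4, 5 had 3, 8 had 2, 18 had 1 and 19 had none, the last being seen only in the conservative list. All 4 lists held a summit at 13 member starts (0.528%), beside 13.4% of all starts. Of the 59 starts with a conservative summit, 13 (22%) were in all 4 lists and 22 (37.3%) in none. At coding starts with a conservative summit these shares were 52.2% and 12.8%.

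lncRNA:CR43650 (FBgn0263659, 2R:16829095-16839494, + strand) had the strongest peak of the set. Its summit ranked at 1.47%, 1.16%, 1.63% and 1.98% from the top in replicates 1 to 4, so it was within the top 2% everywhere. The peak ran from 16830274 to 16830768 with the summit 171 bp upstream of the start at 16830689, and the nearest coding start, of CG34460, was 3817 bp from that start. A second start of the gene, at 16829095, held a separate and weaker summit in all 4 lists, ranked at 33.0%, 66.5%, 69.0% and 46.9%. The gene's longest spliced transcript of 10400 nt has 1 exon.

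asRNA:CR45009 (FBgn0266361, X:23007672-23009452, + strand) came next. Its ranks were 12.8%, 12.9%, 11.8% and 12.7%, the narrowest spread among the genes below the first, and the summit lay 40 bp upstream of the start. Its nearest coding gene was stnB, which encodes an endocytic protein. lncRNA:CR43838 (FBgn0264390, X:20759736-20760953, - strand), whose TATCGATA run is printed above, ranked at 11.1%, 13.5%, 13.2% and 12.9%. It was the most isolated of the 12, at 14988 bp from a coding start, and its summit lay 197 bp downstream of the start.

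asRNA:CR45806 (FBgn0267456, 3L:175138-176104, + strand) starts in an exon of CG7049, on the other strand, and ranked at 17.5%, 18.8%, 29.3% and 16.6%. The summit lay 427 bp upstream of its start and 1517 bp from a coding start. These 4 genes stood apart from the other 8 of the group, whose mean ranks were between 55.0% and 60.9%.

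Among those 8, asRNA:CR45131 starts in an intron of M7BP on the other strand and had a mean rank of 55.0% ± 7.82 (SD, n = 4). lncRNA:CR45157 starts in an intron of CG17672, also antisense, at 57.1% ± 7.85. asRNA:CR46453 and lncRNA:CR46455 start 361 bp apart on opposite strands and share one summit, ranked at 41.5%, 46.1%, 63.3% and 77.7%, a mean of 57.1% ± 16.6. The pair lies beside CG12134. lncRNA:CR45471, beside Nipped-B, which loads cohesin onto chromosomes, was at 59.6% ± 11.6, and it is the one gene of the 12 with a pseudogene within 500 bp (CR40282).

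mir-2282 and its 22 nt mature entry share a summit in an intron of sty, the gene of the signalling antagonist Sprouty, at a mean rank of 60.9% ± 10.9. The hairpin is 107 nt long, and the summit lay 323 bp downstream of its annotated start, past its other end. At lncRNA:CR44948 the conservative summit lay 496 bp downstream of the start, 4 bp inside the window, and 821 bp from the nearest coding start, beyond the other end of this short gene (3R:25496078-25496478). The ranks there were 95.6%, 44.0%, 49.3% and 45.3%. Replicate 1 had a stronger summit, ranked at 41.0%, 511 bp downstream and so outside the window.

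Of the 12 genes, lncRNA:CR43650, asRNA:CR45009 and lncRNA:CR43838 kept a summit in all 4 lists under each of 4 other settings. With windows of 250 bp on either side 5 of the 12 did, and with only the upper 50% of peaks by signal 4 did.

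**Figure D4:**
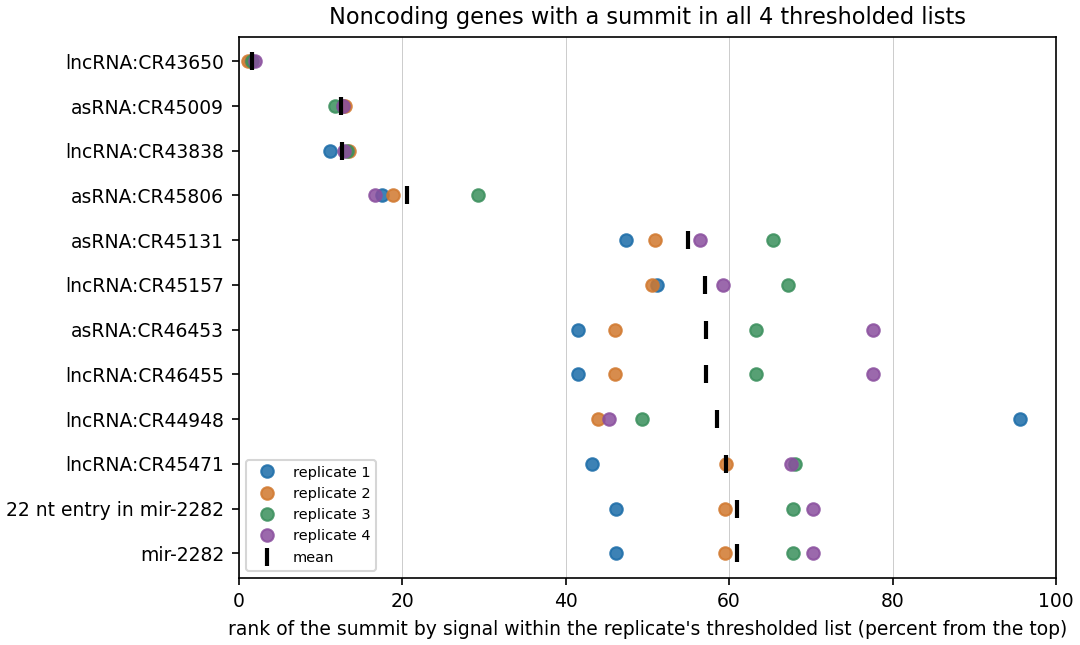
Rank by signal of the summit within each replicate's thresholded list, in percent from the top, for the 12 genes with a summit in all 4 lists; coloured points are replicates and black ticks their mean. The first 4 genes have means between 1.56% and 20.6%, and the other 8 between 55.0% and 60.9%, with the lone point at 95.6% belonging to lncRNA:CR44948.

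In 3 of the 4 thresholded lists were lncRNA:CR45297, asRNA:CR43469, lncRNA:CR46110 in an intron of kay (the fly Fos), lncRNA:CR44218 in an intron of kis (a chromatin remodeller) and lncRNA:CR43973 in an intron of Ctps (CTP synthase). Their mean ranks over those 3 lists ran from 45.0% at lncRNA:CR45297 to 82.8% at lncRNA:CR43973. In the replicate without a thresholded summit each still had a ranked peak, with scores of 463, 564, 641, 795 and 131 in that order. These scores are the authors' scaled irreproducible discovery rate, with 1000 for the most reproducible peaks, and the thresholded lists hold no row under 830. These genes fall outside the naming rule and were picked after their values were seen.

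Of the 19 genes with a conservative summit and none in a replicate's own thresholded list, the naming rule takes the 5 strongest. The first by conservative signal was lncRNA:CR45937, at 62.0% from the top of the conservative list. Its strongest ranked peaks scored 71, 89, 66 and 723 in replicates 1 to 4, so only replicate 4 came near the limit. mir-4978 and its mature entry, in an intron of mam (the Notch coactivator Mastermind), ranked at 64.6% and scored 364, 90, 48 and 135. lncRNA:CR46475, in an intron of nAChRalpha4, an acetylcholine receptor subunit, scored 792, 703, 789 and 78. lncRNA:CR46322 overlaps the nuclear receptor gene Hr3 and scored 53, 68, 76 and 662.

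The reverse case, a thresholded summit in a replicate but none in the conservative list, was found at 9 starts of 9 genes. Each was in 1 replicate, replicate 2 for 8 of them and replicate 1 for lncRNA:CR43641, so the rule that asked for 3 or 4 replicates named none.

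**Figure D5:**
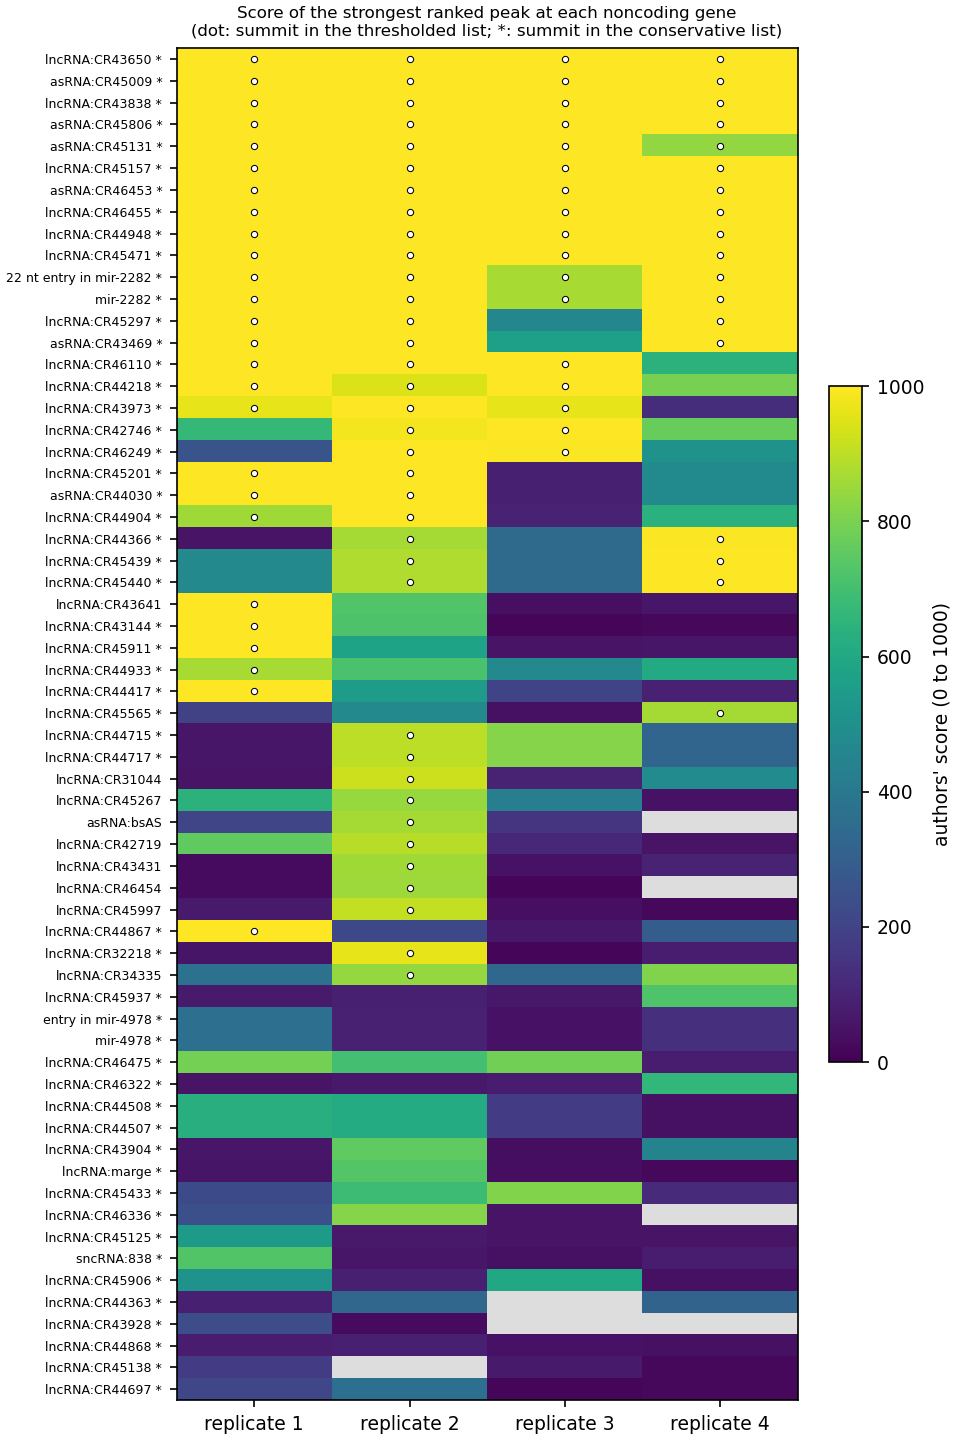
Authors' score of the strongest ranked peak within 500 bp of the best start of the 62 genes with a conservative or thresholded summit, by replicate; grey cells have no ranked peak, dots mark a thresholded summit and asterisks a conservative one. Scores are at least 838 in every replicate for the 12 genes at the top, and lie under 830 in at least 1 replicate for all others.

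Named noncoding genes were looked up from lists of 38 entries, of which 20 genes were members, and none of these 20 had a thresholded or conservative summit. Among all 2359 member genes 62 had one, so at that low share none in 20 does not set the named genes apart. Outside these lists, and picked after their values were seen, asRNA:bsAS, an antisense RNA of bs (blistered), had a thresholded summit in replicate 2 at a rank of 84.9%, and lncRNA:marge had a conservative one at 71.1%. For dosage compensation, roX2 had ranked summits in all 4 replicates with scores of 78, 345, 150 and 340, and roX1 in at most 2. In the bithorax complex, whose RNAs bxd, iab4 and iab8 are transcribed through the regulatory DNA of the homeotic genes, 1 of the 3 genes (iab8) had a start with ranked summits in all 4 replicates, with no thresholded summit. For the neural list, yar, cherub and CRG had no ranked summit in any replicate, and noe had one in 3. The piRNA precursor flam had ranked summits in 2 replicates at one start. TS14 and RNaseP:RNA had none, TS1 and Vinr had them in 2 replicates and 1, acal in 3, and mir-9c in 4. The snoRNA hosts Uhg3 and Uhg7 had ranked summits in 4 replicates and in 2. Other snoRNA hosts lay within 1000 bp of a coding start and so were not members. Of those, Uhg1, Uhg2, Uhg5 and Uhg8 had a conservative summit and Uhg4 had none. Uhg2 and Uhg8 also had a summit in all 4 thresholded lists.

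Hsromega, the large nuclear RNA induced by heat shock, was the exception in strength among these named members. The ranked peak at its start at 21296127 of 3R scored 1000 in all 4 replicates and ranked at 1.97%, 2.66%, 2.53% and 2.16% of the ranked lists. These lists are far longer than the thresholded ones, so the ranks are not on the scale used for the 12 genes. In the ranked lists lncRNA:CR43650 stood at 0.0969% to 0.151% and asRNA:CR45806 at 1.25% to 1.79%, both ahead of Hsromega. Hsromega was first by mean rank among the members with ranked summits in all 4 replicates and no thresholded one. Although its score of 1000 is above the limit of 830, no thresholded list, nor the conservative list, holds a summit in this window. The comparison of the ranked and thresholded lists showed that such rows were missing elsewhere too.

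Of the ranked rows on the nuclear arms at or above 830, 107 of 3716 were missing from the thresholded list in replicate 1 and 105 of 3715 in replicate 2. The counts were 55 of 2578 in replicate 3 and 88 of 2972 in replicate 4, so 2.13% to 2.96% of rows were absent, and every thresholded row was found among the ranked ones. The labels give no reason. Among the members this touched both starts of Hsromega in replicate 1 and the first of them in the other replicates, and Uhg3 in replicate 2, where its ranked peak scored 934. With the missing rows counted, 31, 39, 19 and 20 member starts held a summit in replicates 1 to 4, a mean of 1.11% ± 0.388.

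Next after Hsromega by mean rank among members with ranked summits in all 4 replicates and no thresholded one came RNaseMRP:RNA, the RNA of the ribosomal RNA processing enzyme MRP. It ranked at 10.8%, 19.8%, 7.38% and 10.8% of the ranked lists, with scores of only 98, 368, 37 and 45. mir-9374 and its pair of mature entries followed at a mean of 12.8%, scoring 645, 66, 348 and 212.

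In the own thresholded lists, members nearer to coding starts carried a peak more often, as other DNA at those distances did. The conservative share was 3.60% of the 528 starts at 1001 to 2000 bp from a coding start, 2.40% at 2001 to 5000 bp, 2.50% at 5001 to 10000 bp and 1.29% of the 621 starts farther out. The own thresholded lists gave 1.85% ± 0.522, 1.14% ± 0.449, 0.963% ± 0.472 and 0.322% ± 0.228 in the same order (SD, n = 4). The median distance was 4485 bp for all members, 3218 bp for those with a conservative summit and 2223 bp for those in all 4 lists. At the 1000 bp limit, the conservative start just inside was lncRNA:CR45201 at 1042 bp, seen in 2 thresholded lists. The one just outside was lncRNA:CR44127 at 890 bp, seen in 4.

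Starts inside an intron of a coding gene on the other strand held a conservative summit in 4.64% of cases (17 of 366), against 1.09% (4 of 367) for introns on the same strand and 2.37% (35 of 1477) between genes. In the own lists the intron shares were 1.64% ± 0.740 and 0.749% ± 0.409 (SD, n = 4), with overlapping ranges of 0.546% to 2.19% and 0.545% to 1.36%. The coding hosts of the 17 antisense starts were kay, kis, bun, Hipk, EcR (the ecdysone receptor), mam, M7BP and Ctps. The others were beat-Ib, Mapmodulin, CG17672, peo, nAChRalpha4, Alh and dati. Starts in EcR, mam, peo, nAChRalpha4, Alh and dati, and lncRNA:CR44868 in beat-Ib, had no own thresholded summit. In a grouping added after the data were seen, starts with another member start on the opposite strand within 1000 bp held a conservative summit in 5.67% (11 of 194), against 2.12% of the others, and in the own lists in 1.80% ± 0.987 against 0.982% ± 0.313. The pairs asRNA:CR46453 with lncRNA:CR46455, lncRNA:CR45201 with asRNA:CR44030, lncRNA:CR44715 with lncRNA:CR44717 and lncRNA:CR44508 with lncRNA:CR44507 each share a summit. The rest of the 11 are starts of lncRNA:CR46336 that share one more, so these starts are not independent. The own-list share rests on 4, 6, 2 and 2 starts in replicates 1 to 4, which share summits in the same way.

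Antisense RNA genes had the highest own thresholded share of the larger classes, at 2.48% ± 0.582 (SD, n = 4), against 1.13% ± 0.483 for genes named lncRNA, while their conservative shares were 2.70% (6 of 222) and 2.99% (48 of 1608). No asRNA start with a conservative summit lacked an own one, while 19 of the 48 lncRNA starts did. Among miRNA hairpins 2 of 197 held a conservative summit, and among the Su(Ste) repeats none of 27, where no ranked summit was found either. In groupings added after the data were seen, genes with more than 1 exon held a conservative summit at 3.45% of starts (24 of 695) and single-exon genes at 1.98% (35 of 1765). By arm, the conservative share was highest on chromosome 4, at 3 of 19 starts, and then on 2R at 4.62% and 3L at 3.39%, and was 0 of 28 on Y. On chromosome 4, lncRNA:CR45201 and asRNA:CR44030 share a summit, and lncRNA:CR45125 had no own thresholded one. The shares by arm were not set against those of coding starts. A transposable element lay within 500 bp of 4.11% of members and of 5.08% of those with a conservative summit (3 of 59). None of the 101 members with such an element had an own thresholded summit, where the 2359 other starts held 1.09% ± 0.381 (SD, n = 4). At so low a share, none in 101 starts is not a detectable difference. These groupings were not tested.

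Noncoding starts next to genes of appendage and segment identity were looked at separately. For 48 starts of 41 genes the nearest coding gene was on a list of appendage and homeotic genes, such as dac, hth, wg and Ubx. None held a conservative or own thresholded summit, where the 2412 other starts held 2.45% and 1.07% ± 0.373. A count of 0 in 48 starts allows a share of up to 6.25% (3 starts, counting error only), so a difference was not detectable at this size. Their ranked share of 29.2% was close to the 28.9% of the others.

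The 9 words were counted around the summits, with no test. Within 50 bp of the 57 conservative summits in member windows, GAGAGAG was present at 14.0% (8), against 3.92% of all 5203 conservative summits and 8.36% of the 550 other summits over 1000 bp from a coding start. In replicates 1 to 4 it was present at 20%, 11.4%, 5.88% and 5.56% of thresholded member summits, against 3.91%, 3.32%, 2.18% and 1.66% of all, so each replicate had more at members and replicate 1 most. The mean was 10.7% ± 6.75 against 2.77% ± 1.03 (SD, n = 4), on 1 to 6 member summits a replicate. TATCGATA was present at 8.77% (5) of the conservative member summits, 11.7% of all and 4.55% of the other distant ones. CGATAT stood at 10.5%, 16.1% and 7.64% in the same order. The homeodomain core TAATTA was present at 12.3% (7), against 7.23% and 5.45%. In the own lists it was at 11.8% ± 1.82 of member summits against 7.61% ± 0.680 of all, on only 2 to 5 member summits a replicate. TATAAA was at 10.5%, 14.1% and 12.4%, and TCAGTT at 8.77%, 6.17% and 6.0%. GGTCACAC and CAGGTAG were at none of the 57, and at 2.73% and 0.442% of all. GGTTCGA, the tRNA word, was also at none, against 1.17% of all and 3.82% of the other distant summits. In the own lists CGATAT was lower at members in each replicate, at a mean of 10.3% ± 4.59 against 21.4% ± 1.36 of all. TATAAA was also lower in each, at 9.53% ± 2.35 against 15.3% ± 0.965. TATCGATA (means of 15.3% and 17.05%) and TCAGTT (8.57% and 5.97%) were lower at members in replicates 1 to 3 and higher in replicate 4. These shares rest on 1 to 4 member summits a replicate. GGTCACAC and CAGGTAG were at none, and GGTTCGA at 0 to 1 a replicate.

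From 250 bp before to 50 bp after the start, TATCGATA was found at 0.813% of all members (20 of 2460), 8.47% of those with a conservative summit (5 of 59) and 7.98% of coding starts. In the same order, GAGAGAG was at 5.41%, 10.2% (6 of 59) and 7.61%, and TAATTA at 17.4%, 20.3% (12 of 59) and 18.9%. CAGGTAG was at 1.22%, 1.69% (1 of 59) and 1.70%. These 4 words were at a higher share of the members with a summit than of all members, for CAGGTAG by a single start. The other 5 words were at a lower share, with TATAAA at 33.7%, 22% (13 of 59) and 42.2%. CGATAT was at 10.2%, 8.47% (5 of 59) and 17.6%, and TCAGTT at 21.6%, 20.3% (12 of 59) and 26.8%. Some of the 59 starts share a summit, and none of these differences was tested. GGTTCGA was at 2.60%, 0% and 2.48%, and GGTCACAC at 0.366%, 0% and 6.71%. A word absent from a window says only that those letters are not there.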

How the data were processed

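ChIP-seq peak lists of 4 biological replicates were analysed. Each peak's height is the authors' deposited signal, of unstated normalization, which served only for ranks inside one list. The deposited score is the authors' scaled irreproducible discovery rate, at most 1000, and no row of a thresholded list was below 830. Aligner and peak caller: not given in the sources used here. Another 14 columns of the series-level ranked lists, which hold values per replicate without a sample name, were not used. Without read counts the sequencing depth is unknown, and precision rests on the spread over 4 replicates. Tests over replicates measure only that spread.

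Summits (column 2 plus column 10, written 1-based) were placed on dm6. No peak of the 15 lists compared with the arms ended beyond its arm. Genes came from Ensembl release 115. Windows of 500 bp on either side of a start were counted in Python 3.11.15 with NumPy 2.4.6, pandas 2.3.3, SciPy 1.17.1 and matplotlib 3.10.9, and 9 lists were checked with bedtools 2.31.1, with 0 starts that differed. On simulated data, 200 of 200 starts with a planted summit were found among 2460, with 0 others called. Differences between shares, and log2 ratios of densities, were tested within replicates by exact sign flips, two-sided.

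The members and the gene and word lists were chosen with earlier results of these data known. Genes were named by rule: fixed lncRNAs that are members, genes in all 4 thresholded lists, up to 5 seen only in the conservative list, up to 5 in 3 or 4 thresholded lists and not in the conservative one, up to 5 in all 4 ranked lists only, and the start on either side of the 1000 bp limit. The alternatives were other windows and distances, 1 start per gene, interval overlap, the upper 50% of peaks by signal, subsets of members, 6 other series-level lists and leaving out each replicate. Counting all ranked rows with a score of at least 830, and the density by distance bin, were added after the data were seen.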

Additional observations from a re-analysis of the deposited data

Results flagged for a closer look

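Among 35 sets of 4 replicate values, 1 held a value far from the other 3, and chance alone flags about 1 in 20. It was the rank of the summit at lncRNA:CR44948, at 95.6% from the top in replicate 1 against 44.0%, 49.3% and 45.3% in replicates 2, 3 and 4. The summit read there lay 307 bp downstream of the start, against 474, 461 and 488 bp in the others. A second summit of replicate 1, ranked at 41.0%, lay 511 bp downstream, 11 bp outside the window.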

How the results depend on the processing

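The share of noncoding starts with a conservative summit, 2.40%, was 1.46% with windows of 250 bp on either side, 3.78% with 1000 bp and 0.691% with the upper 50% of peaks by signal. In 4 other series-level lists, of 4640, 4009, 4347 and 4318 nuclear peaks, it was 1.63%, 1.50%, 1.54% and 1.63%. The other 7 of 14 alternatives left it within its exact 95% interval of 1.83% to 3.08%. That interval counts every start as independent, although some share a summit, and it measures no spread over replicates. The mean share of the own thresholded lists, 1.05%, was 0.600% with 250 bp, 1.85% with 1000 bp and 0.315% with the upper 50% of peaks. Leaving out each replicate gave 0.894% to 1.15% for this share, 19.5 to 21.1 percentage points for the difference from coding starts and 4.64 to 5.06 for the density ratio. Over the other alternatives the difference was 13.2 to 22.4 points and the density ratio 3.23 to 5.93, in the same direction throughout. With all ranked rows at or above a score of 830, added after the data were seen, the values were 1.11%, 20.6 points and 4.83. With 3 replicates the smallest exact permutation p is 0.25. No paired analysis was possible because the samples form 1 group, so no numbers pair samples across groups, and the sign flips compare values within a replicate. Depth is unknown, so a start without a peak is not shown to be unbound.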
